A study of Danio rerio with 9 samples.

Results

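The genes gadd45ba, gadd45bb and mych were taken by symbol from the gene tables of 9 RNA sequencing libraries of whole zebrafish embryos, 3 genes of the 30702 entries each table lists. Each ploidy (diploid, haploid and tetraploid) had 3 libraries, and the labels give the cross of every library as TJH female by Tu male and its stage as 3 hours after fertilization. The labels credit a published method for making haploid and tetraploid embryos and do not give the agent, the number of embryos per library or whether libraries came from separate clutches, so the spread between libraries may be technical. The 3 genes were chosen by measured values, their differences between ploidies in these same libraries, so their values between ploidies are a description with no test.

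Gadd45 proteins are small stress sensors. In mammals they bind the kinase MTK1 (MAP3K4), which switches on the p38 and JNK kinases, they bind PCNA, p21 and the Cdk1 and cyclin B pair to slow the cell cycle, and they take part in active DNA demethylation. The genes gadd45ba and gadd45bb are paralogs of each other and the zebrafish orthologs of mammalian Gadd45b, an immediate response gene. The gene mych encodes a Myc family factor, a basic helix-loop-helix leucine zipper protein of the kind that pairs with Max and binds E-box sequences. At this stage embryos run mostly on maternal RNA while the first zygotic genes are being switched on.

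The locus of gadd45ba spans chromosome 11 from 6446306 to 6447909, that of gadd45bb chromosome 2 from 36957291 to 36959531, and that of mych chromosome 6 from 50452117 to 50455614, on the GRCz10 build named in the submitters' processing notes. The tables give gadd45ba 1 annotated start site and the other genes 2 each. No other listed locus overlapped any of them. How reads that match both gadd45b paralogs were assigned is not given in the sources used here.

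Levels are FPKM (fragments per kilobase of transcript, set relative to all mapped fragments), which are per length, divided by a scale factor per library. Locus numbers run through each chromosome in 2 passes. Only 0.28% of the loci numbered in the second pass reached a mean FPKM of 1, compared with 38.5% in the first, so low second-pass genes were treated as unmeasured. All 3 members lie in the first pass and were among the 5881 loci with a mean of at least 1 that were tested. Depth is not stated. The library of tetraploid replicate 3 was the least like the others (pairwise r from 0.9162 to 0.9304, where pairs without it had 0.9501 to 0.9851), and its scale factor was 0.793.

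Of the pair of gadd45b paralogs, gadd45bb was the more abundant. In diploids it had 23.6, 7.50 and 12.2 scaled FPKM in replicates 1, 2 and 3, a mean of 14.4 ± 8.27 (SD, n = 3). The haploid libraries had 4.37, 0.226 and 0.62, a mean of 1.74 ± 2.28, and every one of them was below the lowest diploid. In tetraploids the values were 12.2, 7.27 and 7.73, a mean of 9.08 ± 2.75, inside the diploid range but for replicate 2, which was just under it. With FPKM as deposited, tetraploid replicates 2 and 3 (7.546 and 6.13) were both below the lowest diploid (7.654). The diploid mean was 8.30 times the haploid mean, and the tetraploid mean 5.23 times the haploid one. Haploid replicate 1 supplies most of the haploid mean, and without it these ratios were 34.05 and 21.45. These larger ratios rest on haploid replicates 2 and 3, and the authors' interval of replicate 2 reached 0. In whole embryos, fewer cells with a transcript and less of it per cell cannot be told apart.

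On the log2(scaled FPKM + 1) scale, gadd45bb differed by -2.67 (SE 0.551) between haploids and diploids, -0.51 (SE 0.551) between tetraploids and diploids, and 2.16 (SE 0.551) between tetraploids and haploids. This scale understates differences of low genes. Of all genes tested, 3.93% had haploids wholly below diploids and 4.66% wholly above. Tetraploids lay wholly above haploids in 7.23% of genes and wholly below in 6.53%. For gadd45bb the tetraploid and diploid libraries overlapped. The 3 comparisons share libraries and are not independent of each other. Left out in turn, single libraries gave -3.31 to -2.25 for haploids against diploids and 1.74 to 2.81 for tetraploids against haploids. The tetraploid difference from diploids was -0.10 without diploid replicate 1 and -0.87 without diploid replicate 2.

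The paralog gadd45ba had 4.95, 1.13 and 4.70 scaled FPKM in the diploid replicates 1, 2 and 3, a mean of 3.60 ± 2.14 (SD, n = 3). Haploid replicate 1 had 3.24, within the diploid range, while haploid replicates 2 and 3 had 0.0999 and 0.0406. The tetraploid libraries had 0.792, 0.514 and 0.183, a mean of 0.496 ± 0.305, all below the lowest diploid. The authors' interval of that diploid library, replicate 2, was 0.534 to 1.725 and overlapped the interval of each tetraploid library. Of all genes tested, 6.02% had tetraploids wholly below diploids and 5.48% wholly above. Haploids and diploids overlapped through haploid replicate 1, and haploids and tetraploids overlapped as well.

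The log2 differences of gadd45ba were -1.30 (SE 0.568) in haploids against diploids, -1.50 (SE 0.568) in tetraploids against diploids and -0.20 (SE 0.568) in tetraploids against haploids. Without haploid replicate 1 the haploid difference from diploids was -1.96, and the tetraploid difference from haploids turned to 0.46. A direction between haploids and tetraploids is therefore not given for this gene. The diploid mean was 7.24 times the tetraploid mean, a ratio that rests on tetraploid levels below 1 scaled FPKM.

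For mych the diploid values were 9.23, 3.29 and 5.12 scaled FPKM in replicates 1, 2 and 3, a mean of 5.88 ± 3.04 (SD, n = 3). Haploids had 3.05, 1.90 and 1.75, a mean of 2.23 ± 0.71, and tetraploids 3.13, 3.06 and 2.12, a mean of 2.77 ± 0.566. All 6 haploid and tetraploid libraries were below the 3 diploids. The margin was narrow, with the lowest diploid at 3.29 against 3.05 in the highest haploid and 3.13 in the highest tetraploid, and the authors' intervals of these libraries overlapped.

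The log2 difference of mych was -1.02 (SE 0.317) in haploids and -0.79 (SE 0.317) in tetraploids, each against diploids. Between tetraploids and haploids it was 0.23 (SE 0.317), with overlapping libraries. Without diploid replicate 1 the tetraploid difference was -0.46 and the haploid difference -0.69. Of all genes tested, 38 (0.646%) had every haploid and tetraploid library below every diploid, and mych was the member with this pattern. The groups of each member kept their overlap or separation with FPKM as deposited and with upper-quartile scaling.

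**Figure D1:**
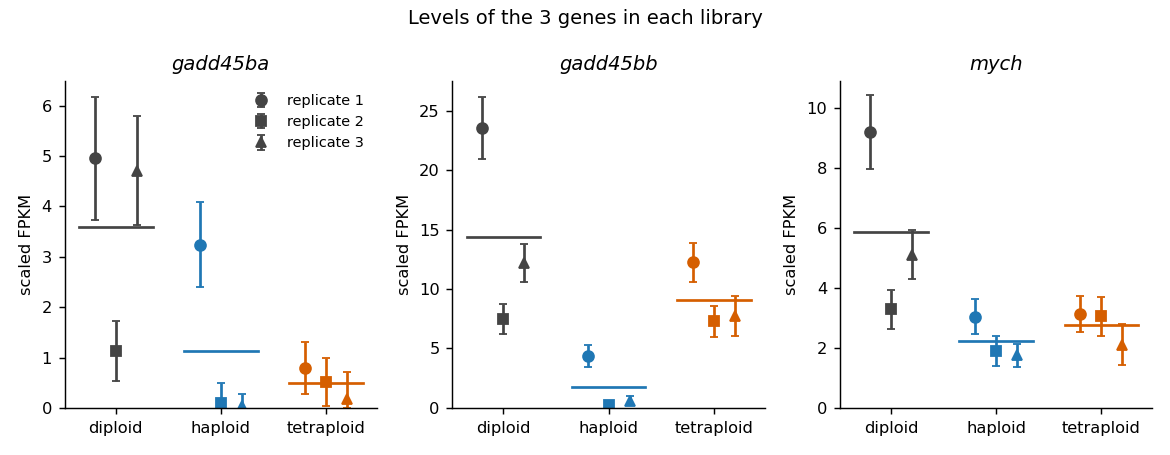
Scaled FPKM (vertical axis) of gadd45ba, gadd45bb and mych in each library by ploidy (horizontal axis), with points for libraries, vertical bars for the interval deposited by the authors and horizontal lines for the mean of 3 libraries. Diploid replicate 1 is the highest library in each panel, the haploid gadd45bb values (0.226 to 4.37) lie below every diploid, and the tetraploid gadd45ba values (0.183 to 0.792) do too. The bars of the tetraploid gadd45ba values overlap that of diploid replicate 2.

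The authors' pooled tables, which hold 1 Cuffdiff FPKM per ploidy, give these genes on another normalization. In the first of the authors' deposited tables gadd45bb had a diploid value of 33.0, a haploid value of 4.13 and a tetraploid value of 22.1. The same deposited table by the authors gave gadd45ba as 8.70, 2.73 and 1.18, and mych as 13.5, 5.37 and 6.70, in that order of ploidies. In both of the authors' deposited tables the diploid value was the highest for each gene, and gadd45ba was lowest in tetraploids while gadd45bb and mych were lowest in haploids. Pooled values of the same series are not separate support, and they show no spread between libraries. In the single libraries without haploid replicate 1, the haploid gadd45ba mean was 0.0703 scaled FPKM, below the tetraploid 0.496. The order of haploids and tetraploids is therefore not read as a direction for gadd45ba, and for mych their libraries overlapped. The second of the authors' deposited tables had 30.7, 4.05 and 22.5 for gadd45bb, 8.004, 2.64 and 1.17 for gadd45ba, and 12.6, 5.55 and 6.78 for mych.

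The 3 genes were unevenly measured. The authors' interval reached 0 in 3 libraries for gadd45ba (haploid replicates 2 and 3 and tetraploid replicate 3), in 1 for gadd45bb (haploid replicate 2) and in none for mych. Read as counting error of 2 standard deviations, the interval widths imply 37.2 to 223 fragments per library for mych, 1.496 to 326 for gadd45bb and 0.118 to 75.9 for gadd45ba. The lowest gadd45ba values have intervals that reach 0, and are not distinguishable from 0 at this depth. Their implied fragments were not in proportion to FPKM, at 59.8 for 3.33 in haploid replicate 1 and 0.118 for 0.0416 in haploid replicate 3. In the same libraries mycb had 619 for 26.9 and 701 for 28.7. For gadd45bb, haploid replicate 2 had 1.496 for 0.2265, while haploid replicates 1 and 3 had 90.4 for 4.49 and 12.1 for 0.636. The gadd45ba widths, and that of gadd45bb in haploid replicate 2, may thus hold more than counting error. Their implied fragments would then be too low. The intervals are given per library and do not cover differences between libraries.

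Differences between libraries of the same ploidy went beyond the authors' intervals in part. In diploids the intervals of all 3 library pairs were separate for gadd45bb and for mych, and of 2 of 3 pairs for gadd45ba. In haploids 2 of 3 pairs were separate for each of the genes. In tetraploids 2 of 3 pairs were separate for gadd45bb and 0 of 3 for gadd45ba and mych. The highest library of a ploidy had 3.15 times the lowest in diploids for gadd45bb, 19.3 times in haploids and 1.68 times in tetraploids. For mych these ratios were 2.80, 1.74 and 1.48. For gadd45ba they were 4.39, 79.8 and 4.34, so its tetraploids were about as uneven as its diploids. Its haploid and tetraploid ratios rest on values that are not distinguishable from 0. The haploid ratio of gadd45bb likewise rests on replicate 2, whose interval reached 0.

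Across the 9 libraries the standard deviation of the log2 level was 1.42 for gadd45bb, the 25th highest of 5881 genes. It was 1.01 for gadd45ba, which ranked 97, and 0.59 for mych, which ranked 513. These spreads include the ploidy differences by which the genes were chosen, so nothing is read from the ranks. Within ploidies the standard deviation was 0.84 for gadd45ba, 0.82 for gadd45bb and 0.42 for mych. For genes with a mean within 1.5 times their own, the median standard deviation was taken across the 9 libraries, not within ploidies. It was 0.31 for gadd45bb and 0.33 for gadd45ba and mych, over 1085, 843 and 953 genes.

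In each ploidy the same library was highest for all 3 genes. These were the libraries numbered 1, 2 and 3 in the titles (diploid, haploid and tetraploid replicate 1), here called library set 1. Of all genes tested, 232 (3.94%) were highest in the set 1 library of each ploidy. Without set 1, a setting chosen after seeing the data, the log2 differences from diploids were -2.91 for gadd45bb, -1.70 for gadd45ba and -0.86 for mych in haploids. In tetraploids they were -0.32, -1.38 and -0.53 in the same order. The gadd45ba difference between tetraploids and haploids turned to 0.32. The labels do not say that consecutive title numbers mark a shared clutch or day.

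**Figure D2:**
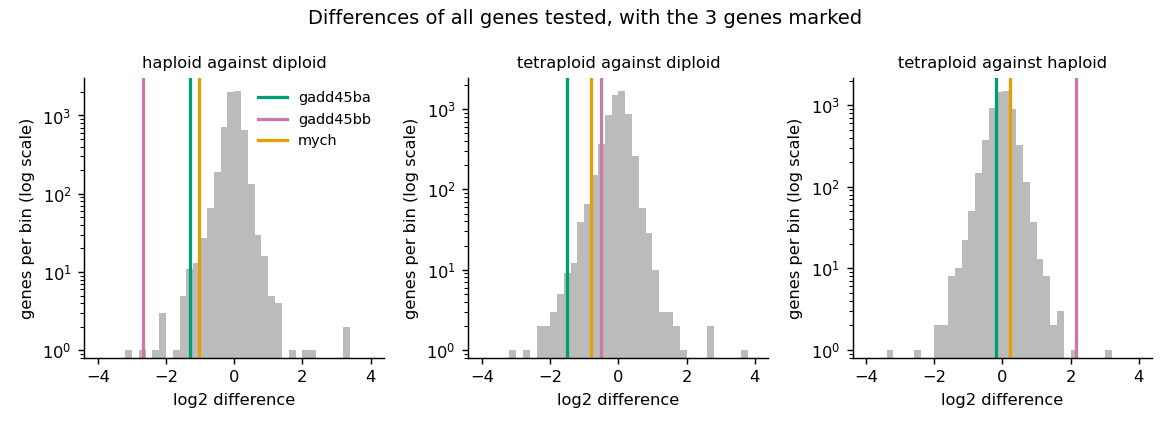
Number of genes (vertical axis, log scale) by log2 difference (horizontal axis) in the 3 comparisons, for all 5881 genes tested, with coloured lines at gadd45ba, gadd45bb and mych. The gadd45bb line lies at -2.67 in haploids against diploids and at 2.16 in tetraploids against haploids, and at -0.51 in tetraploids against diploids.

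The ratio of the paralogs within a library does not depend on the scaling. In diploids gadd45bb had 2.59 to 6.64 times the level of gadd45ba, with a median of 4.76. In tetraploids the ratio was 14.1 to 42.3, above every diploid ratio. The 42.3 is that of replicate 3, whose gadd45ba value is not distinguishable from 0. The gadd45ba interval of tetraploid replicate 2 was 0.042 to 0.987, and each tetraploid gadd45ba interval overlapped that of diploid replicate 2. Haploids ran from 1.35 to 15.3 with a median of 2.27, and the haploid ratios of replicates 2 and 3 rest on gadd45ba values that are not distinguishable from 0. The ratio of gadd45bb to mych was even in diploids, at 2.28 to 2.56, and lower in haploids, at 0.119 to 1.43. The 0.119 is that of replicate 2, whose gadd45bb interval reached 0. In tetraploids the ratio of gadd45bb to mych was 2.38 to 3.91, with the lowest within the diploid range. The genes were chosen by their ploidy differences and other gene pairs were not compared, so nothing is read from separate ranges of these ratios.

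The tables list 7 gadd45 family loci, and gadd45bb was the highest of them in 8 of 9 libraries. The exception was haploid replicate 2, where gadd45ab had 0.421 scaled FPKM. In diploids gadd45ba came next in each library. The median over the diploid libraries of its ratio to gadd45ab, an ortholog of mammalian Gadd45a, was 4.39. The diploid ranges of the pair all but touched, with the lowest gadd45ba at 1.129 and the highest gadd45ab at 1.128, and the authors' intervals of these values overlapped. In haploids and tetraploids gadd45ba was above gadd45ab in 1 of 3 libraries each, so the order of the pair did not hold there. The diploid, haploid and tetraploid levels of gadd45ab were 0.651 ± 0.414, 0.57 ± 0.44 and 1.51 ± 0.866 scaled FPKM (SD, n = 3 each), and the 3 ranges overlapped.

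The other gadd45a paralog, gadd45aa, had 0.0570 to 0.369 scaled FPKM in diploids and 0.306 to 0.937 in tetraploids, and in haploids 0.771, a listed 0 and 0.223 in replicates 1, 2 and 3. A Gadd45g ortholog, gadd45gb.1, was listed at 0 in diploid and haploid replicate 2 and reached 0.756 at most, and its range overlapped that of gadd45aa in diploids and haploids. Neither passed the filter on the mean, nor did gadd45ab, so none of these paralogs was tested. The remaining gadd45g loci, gadd45ga and a locus named GADD45G (1 of many), were listed at 0 in all libraries, belong to the second pass, and were treated as unmeasured.

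Among the 6 myc family loci mych was the second in level, after mycb, an ortholog of mammalian c-Myc. Its diploid level was 34.5 ± 6.64 scaled FPKM, the haploid one 29.6 ± 4.48 and the tetraploid one 43.6 ± 5.43 (SD, n = 3 each), and the lowest mycb library was above the highest mych library. mych was above myca, the other c-Myc ortholog, in 9 of 9 libraries, though the ranges overlapped in diploids and tetraploids. Levels of myca were 2.41 ± 1.73, 0.999 ± 0.206 and 1.46 ± 0.793 in diploids, haploids and tetraploids. mycn, the N-Myc gene, had 1.34 ± 1.40, 0.409 ± 0.133 and 0.25 ± 0.0624 in that order, below the filter. The L-Myc genes mycla and myclb belong to the second pass and were unmeasured.

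The tested paralogs mycb and myca did not pass in any comparison by limma. The log2 differences of mycb were -0.21 (SE 0.183, adjusted p = 1) in haploids against diploids, 0.34 (SE 0.183, adjusted p = 0.833) in tetraploids against diploids and 0.55 (SE 0.183, adjusted p = 0.551) in tetraploids against haploids, all by limma with Benjamini-Hochberg adjustment. For myca they were -0.66, -0.40 and 0.26 (SE 0.348 each; limma adjusted p = 1, 0.833 and 0.85). The ratio of mycb to mych was 2.96 to 10.9 in diploids, 8.57 to 18.3 in haploids and 12.4 to 23.0 in tetraploids.

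**Figure D3:**
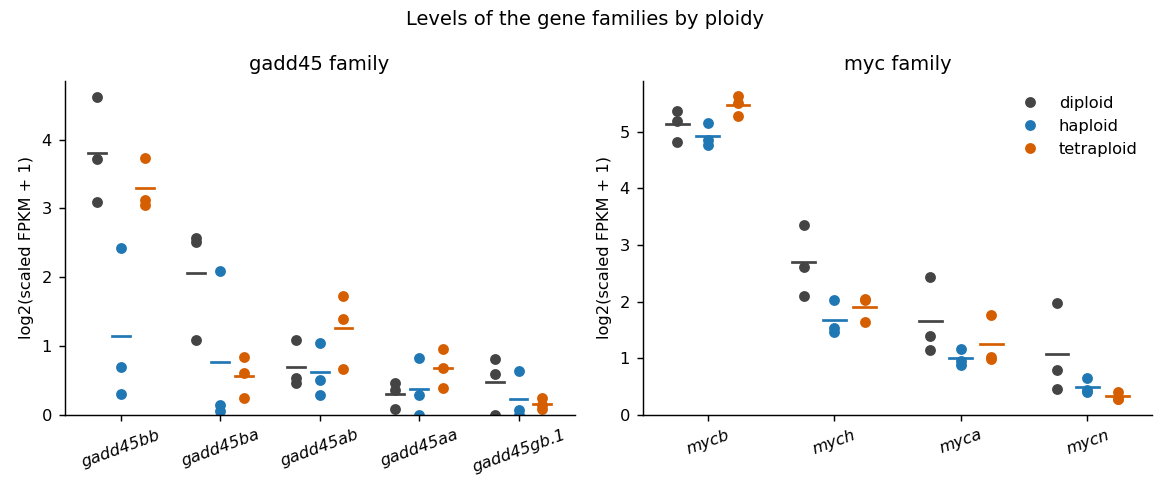
Levels as log2(scaled FPKM + 1) (vertical axis) of gadd45 and myc family genes of the first pass (horizontal axis), with points for libraries coloured by ploidy and short lines for the mean of 3 libraries. gadd45bb and mycb have the highest mean of their families in each ploidy, and the mych points of haploids and tetraploids lie below those of diploids.

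Genes around these members were taken as lists. By limma 0 of the 62 list genes tested passed in haploids against diploids, in tetraploids against diploids or in tetraploids against haploids. Of all 5881 genes tested, 0.0%, 0.017% and 0.017% passed in that order. The counts of list genes at an unadjusted limma p under 0.05 were 4, 2 and 4 in the same order, against 81, 288 and 454 of all 5881 genes.

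Of the partners through which Gadd45 proteins act in mammals, 8 of 25 were tested. In haploids against diploids 4 were higher and 4 lower, with a median log2 difference of 0.08 beside -0.0053 for all genes. In tetraploids against diploids 5 were higher and 3 lower (median 0.05, all genes -0.0046). The p38 kinase genes mapk14a and mapk14b were among the tested ones. For diploids, haploids and tetraploids in turn, mapk14a had 99.9 ± 3.18, 99.4 ± 1.28 and 97.4 ± 18.1 scaled FPKM (SD, n = 3 each). mapk14b had the smallest p of the list in each comparison, with 18.02 ± 0.523, 23.2 ± 3.79 and 14.1 ± 2.68 in that order, and a log2 difference of -0.68 (SE 0.18, limma adjusted p = 0.551) between tetraploids and haploids. The kinase gene cdk1 had 5.98 ± 0.556, 5.33 ± 0.141 and 6.74 ± 3.35. The genes map3k4, pcna, ccnb1 and cdkn1a were not tested, and 13 listed partners, these among them, belong to the second pass.

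DNA demethylation genes had 3 of 10 tested, the glycosylase gene tdg.2 and the repair genes xrcc1 and apex1. In that order of ploidies tdg.2 had 4.78 ± 0.364, 5.01 ± 0.279 and 6.66 ± 1.65 scaled FPKM, and xrcc1 17.1 ± 4.85, 14.1 ± 0.882 and 19.8 ± 4.83. The tetraploid mean was the lowest for apex1, at 33.6 ± 5.02, 32.2 ± 1.11 and 29.8 ± 9.00. The list medians were -0.05 in haploids and 0.21 in tetraploids, each against diploids, and 0.33 in tetraploids against haploids (all genes -0.0059). None of the 3 passed.

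Of the Max network, the partners and rivals of Myc, 3 of 9 genes were tested. The Max-binding repressor gene mxi1 had 52.4 ± 11.3, 43.2 ± 8.68 and 47.7 ± 4.09 scaled FPKM in diploids, haploids and tetraploids. mgaa had 7.74 ± 0.881, 9.67 ± 1.58 and 9.31 ± 2.17, and mntb 4.49 ± 0.57, 4.62 ± 0.596 and 4.53 ± 1.29. max and mlx belong to the second pass, so Max itself, the obligate partner, was unmeasured.

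Myc target genes of mammals, mostly of ribosome biogenesis and metabolism, had 18 of 39 tested. The list medians were 0.04 in haploids and 0.06 in tetraploids against diploids, and -0.02 between tetraploids and haploids, beside -0.0053, -0.0046 and -0.0059 for all genes. shmt2, a mitochondrial serine hydroxymethyltransferase gene, had the smallest p in haploids against diploids, with 3.60 ± 1.21 in diploids and 7.20 ± 3.22 in haploids. hspe1, a mitochondrial chaperonin gene, had it in the other comparisons, at 10.9 ± 2.38, 10.1 ± 4.28 and 17.9 ± 1.16 by diploids, haploids and tetraploids. None of the 18 passed.

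Immediate early and stress response genes, without the members, had 15 of 52 tested. In haploids against diploids 14 were lower and 1 higher, with a median of -0.20 beside -0.0053 for all genes. In tetraploids against diploids 11 were lower (median -0.18, all genes -0.0046). Between tetraploids and haploids 8 were lower (median 0.00, all genes -0.0059). Medians near 0 mean that about as many of all genes were lower as higher. By replicates 1, 2 and 3 the mean centred log2 level of the 15 was 0.42, -0.04 and 0.18 in diploids. In haploids it was 0.02, -0.14 and -0.18 and in tetraploids -0.12, 0.10 and -0.23, so the ploidies overlapped. Diploid replicate 1 was the highest. ier5, an immediate early response gene, had the smallest p in both comparisons with diploids. It had 3.15, 0.969 and 3.26 scaled FPKM in diploid replicates 1, 2 and 3, 1.77, 0.0976 and 0.391 in haploids, while tetraploids had 0.725, 0.775 and 0.353. The tetraploids lay below the diploids, as in 6.02% of all genes tested, and haploid replicate 1 lay within the diploid range, as for gadd45ba. The authors' ier5 interval of diploid replicate 2 (0.563 to 1.375) overlapped that of each tetraploid library. The haploid and tetraploid means of ier5 (0.752 and 0.618) were below 1. It thus passed the filter on the mean through its diploids, and nothing is read from the shared placing of ier5. Its log2 differences were -1.01 in haploids and -1.02 in tetraploids against diploids (SE 0.395; limma adjusted p = 1 and 0.833). By diploids, haploids and tetraploids, mdm2, which encodes a ubiquitin ligase, had 46.3 ± 3.75, 43.8 ± 1.66 and 41.3 ± 3.48 scaled FPKM. For nfkbiab, an inhibitor of NF-kB, the levels were 35.3 ± 7.73, 29.1 ± 3.44 and 37.98 ± 1.60.

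Likeness was measured as Pearson's r of log2(scaled FPKM + 1) over the 9 libraries, against 4875 other tested genes with a proper symbol, as a description. All points share libraries, and r was recomputed without the 2 libraries farthest from the member's median. Each r also includes the ploidy differences by which the members were chosen. The gene most like gadd45ba was ier5 (r = 0.978, Spearman's rho = 0.917, 0.947 without diploid replicates 1 and 3). It was followed by ndr1, a Nodal ligand gene (r = 0.887), pop1 (0.879), wdr47b (0.875) and mych (0.868). Without these diploid libraries r was 0.753, 0.637, 0.752 and 0.74.

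The closest to gadd45bb were klf17 (r = 0.943), mxtx2 (0.895) and irx7 (0.888), which encode transcription factors among the early zygotic genes, then fkbpl (0.879) and ndufs4 (0.878). Without haploid replicates 2 and 3, the lowest libraries, r was 0.725, 0.793, 0.677, 0.844 and 0.652. For mych they were fam212aa (r = 0.905), klf2a, a Krüppel-like factor gene (0.899), wdr47b (0.892), ier5 (0.892) and blf, a zinc finger gene of the blastula (0.886). Without diploid replicates 1 and 3 the value for klf2a was 0.447, so it rests on those libraries, while the others were 0.691, 0.71, 0.788 and 0.709.

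Among themselves, gadd45ba and mych had r = 0.868 (rho = 0.90), gadd45bb and mych r = 0.794 (rho = 0.817), and the gadd45b paralogs r = 0.66 (rho = 0.683). The authors' interval of gadd45ba reached 0 in 3 libraries. Without the 2 libraries farthest from the median of the gadd45b gene (gadd45ba for the paralogs), r was 0.74, 0.812 and 0.421 in that order. These r include the ploidy differences by which the genes were chosen, so nothing is read from their order. Ranked by r, gadd45bb came 109th among the genes compared with gadd45ba, and gadd45ba 139th among those compared with gadd45bb. With the paralogs of mych, r was -0.227 for mycb and 0.488 for myca.

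**Figure D4:**
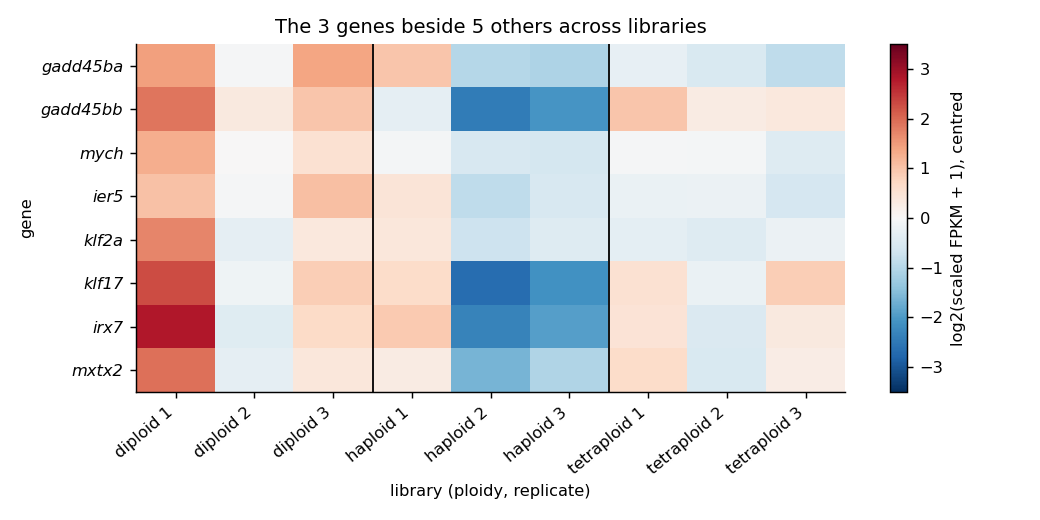
Level as log2(scaled FPKM + 1) minus the gene's mean over 9 libraries (colour) of the 3 genes, ier5, klf2a, klf17, irx7 and mxtx2 (vertical axis) in each library (horizontal axis). Diploid replicate 1 is above and haploid replicates 2 and 3 are below the mean for each gene, while gadd45ba, mych, ier5 and klf2a are below their mean and gadd45bb is above its mean in all 3 tetraploid libraries.

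Early zygotic genes also varied between libraries, in part as the members did. A score, the mean centred log2 level of 8 tested genes of 26 listed, was 1.77, -0.33 and 0.05 in diploid replicates 1, 2 and 3, 0.60, -1.29 and -0.90 in haploids, while tetraploids had 0.18, -0.19 and 0.12. The summed level of all 26 was 24.8 to 169 scaled FPKM in diploids, 7.13 to 56.8 in haploids and 28.0 to 42.9 in tetraploids, and 13 of them, vox, sox19a and tbx16 included, were listed at 0 in every library and 14 belong to the second pass (these 3 among them). The score gave r = 0.76 with gadd45ba, 0.827 with gadd45bb and 0.832 with mych over the 9 libraries (rho = 0.717, 0.717 and 0.55), and 0.73, 0.606 and 0.668 without the 2 farthest libraries of each. It holds klf17, mxtx2, irx7, ndr1 and blf, named above as most like a member, so it is not a separate measure of likeness. The orders of libraries differed in part. Every tetraploid score was above that of diploid replicate 2, while every tetraploid gadd45ba and mych level was below the level of that library. The authors' intervals of these gadd45ba and mych levels all overlapped those of diploid replicate 2, and the members were chosen by their ploidy differences. Haploid replicate 1 had the second highest score but less gadd45bb than any diploid or tetraploid. The same score over the 15 stress response genes gave r = 0.835 with gadd45ba, 0.632 with gadd45bb and 0.941 with mych (rho = 0.85, 0.467 and 0.817), and 0.598, 0.618 and 0.723 without the 2 farthest libraries of each. That score in turn holds ier5 and klf2a, also named above as most like a member. The enveloping layer level, which is grhl3 alone, gave r = 0.666, 0.653 and 0.833 in the same order, and 0.426, 0.753 and 0.212 without the 2 farthest libraries of each. Of the 8 tested early zygotic genes 7 were lower in haploids and 6 in tetraploids than in diploids (medians -0.83 and -0.59). For all genes these medians were -0.0053 and -0.0046. Between tetraploids and haploids 6 were higher in tetraploids (median 0.38, all genes -0.0059). By limma 0 passed in any comparison. The early zygotic scores of diploid replicates 2 and 3 (-0.33 and 0.05) were below those of tetraploid replicates 1 and 3 (0.18 and 0.12). Only diploid replicate 1 lay above every tetraploid score. The part of these scores in the members' differences was not tested.

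klf17 shows this in single libraries. It had 60.0, 10.3 and 21.6 scaled FPKM in diploid replicates 1, 2 and 3, 18.4, 0.966 and 1.88 in haploids, and 16.9, 9.54 and 21.5 in tetraploids. As with gadd45bb, haploid replicates 2 and 3 were the lowest libraries. Unlike gadd45bb, haploid replicate 1 lay within the diploid range, and tetraploid replicate 3 was the highest tetraploid. Its log2 difference was -2.39 (SE 0.841, limma adjusted p = 1) in haploids against diploids.

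**Figure D5:**
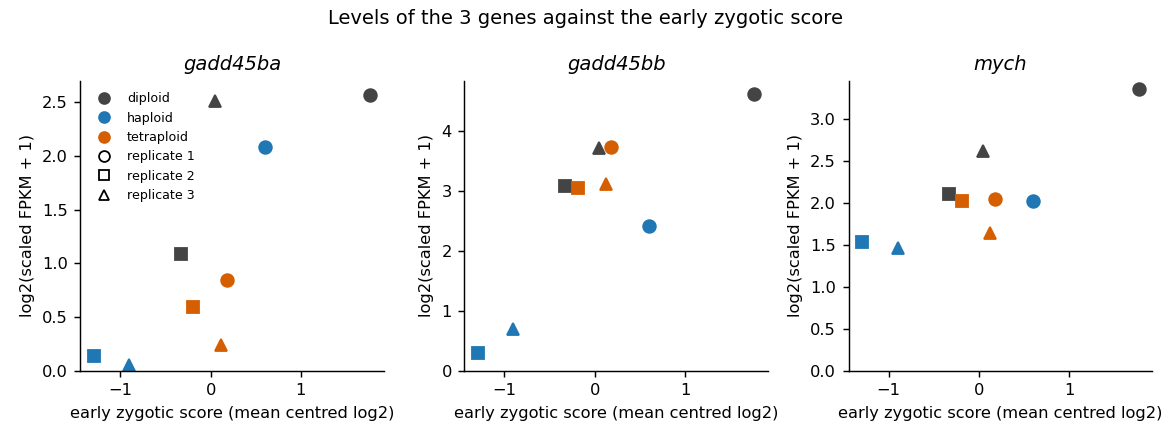
Level as log2(scaled FPKM + 1) (vertical axis) of gadd45ba, gadd45bb and mych against the early zygotic score (horizontal axis, mean centred log2 over 8 genes), with 1 point per library coloured by ploidy and shaped by replicate. Diploid replicate 1 has the highest score (1.77) and the highest level of each gene, and haploid replicate 2 has the lowest score (-1.29).

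Cell type markers differed between libraries in part. Enveloping layer markers had a summed level of 0.539 to 15.6 scaled FPKM in diploids, 0.344 to 1.76 in haploids and 0.38 to 1.55 in tetraploids, with 5 of 9 listed genes at 0 in all libraries, krt4 and cldne among them, which belong to the second pass, and grhl3 as the tested one. Yolk syncytial layer markers had 1.87 to 10.8, 0.11 to 2.94 and 1.34 to 4.46, with 5 of 9 at 0 and mxtx2 as the tested one. Both sums were highest in diploid replicate 1. Germ plasm markers had 514.3 to 556.7, 534 to 567.1 and 447.1 to 583.1, with 4 of 10 tested. The germ plasm gene tdrd6 had the smallest p of the latter, with 23.4 ± 1.27, 28.8 ± 3.57 and 19.2 ± 3.09 in diploids, haploids and tetraploids. The part of these markers in the members' differences was not tested.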

How the data were processed

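FPKM for 9 libraries and pooled Cuffdiff FPKM for 3 ploidies were deposited by the authors. Per the submitters' processing notes HISAT2, Cufflinks and Cuffdiff were used beside FastQC and Trim Galore, with the build GRCz10. No source used here states versions, annotation, strand setting or the normalization of the pooled tables. Groups came from the ploidy label, and replicate numbers follow accession order.

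FPKM were divided by median-of-ratios factors (0.793 to 1.046) and log2(FPKM + 1) values were fitted by limma (version 3.58.1, R 4.3.3). The fit held the 9 libraries together, left 6 residual degrees of freedom and let the variance follow the mean level. Two-sided p-values were adjusted by Benjamini-Hochberg over 5881 loci, with a threshold of 0.05. Loci needed a mean FPKM of at least 1 as deposited (the design named scaled FPKM, and the filter was set to deposited values after the files were seen), and 5 with a failed status were left out. Of those tested 162 carry several symbols. The fit was tested on simulated data. No library pair was identical.

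The members and lists were chosen with earlier results of these data known. Genes named are the members, their families, the smallest-p gene of each list per comparison and the 5 most similar genes per member. Other list genes (mapk14a, cdk1, apex1, mntb, mdm2) and the ones that could not be tested were named for their role after values were seen. Alternatives covered scaling, pseudocount, filter, weights, a library block and single libraries left out.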

Additional observations from a re-analysis of the deposited data

How the results depend on the processing

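Over 18 or 19 alternatives per difference, gadd45bb, gadd45ba and mych kept the sign of their differences from diploids, and gadd45bb and mych that of tetraploids against haploids. Several of these alternatives cannot change a difference and say nothing about its sign. They are the other filters, only the 6 libraries compared, the library block and leaving out a library of the ploidy not compared. The gadd45ba difference between tetraploids and haploids reversed with a pseudocount of 0.1 (0.24), array weights (0.03), without haploid replicate 1 (0.46) and without library set 1 (0.32), an alternative added after seeing the data. With a pseudocount of 0.1 the log2 differences from diploids were -2.77 for gadd45ba and -3.68 for gadd45bb in haploids and -2.53 for gadd45ba in tetraploids, and 3.14 for gadd45bb in tetraploids against haploids. With a pseudocount of 5 they were -1.49 for gadd45bb in haploids, -0.61 for gadd45ba in tetraploids and 1.10 for gadd45bb in tetraploids against haploids. The pseudocount sets the scale of low values by construction. With a mean FPKM of at least 5 gadd45ba and mych are not tested.

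Leaving out single libraries gave -1.96 to -0.95, -1.98 to -1.24 and -0.55 to 0.46 for gadd45ba in haploids against diploids, tetraploids against diploids and tetraploids against haploids. The ranges were -3.31 to -2.25, -0.87 to -0.10 and 1.74 to 2.81 for gadd45bb, and -1.31 to -0.69, -1.08 to -0.46 and 0.13 to 0.40 for mych.

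The genes called by limma were 0, 1 and 1 in haploids against diploids, tetraploids against diploids and tetraploids against haploids, and ranged from 0 to 1 in each with single libraries left out. Tetraploids against diploids had 0 with FPKM as deposited (median of all genes -0.1123), a pseudocount of 5 and only the 6 libraries compared, and 3 with no filter, where 1 list gene, the marker apoa2, was called. Tetraploids against haploids had 0 with only the 6 libraries compared. Without library set 1 the counts were 1 in haploids against diploids, 1 in tetraploids against diploids and 0 in tetraploids against haploids; the gene called in the first 2 was dut, where the fit of all libraries called ankdd1a in the comparisons with tetraploids. Without diploid replicate 1 alone, dut was also the gene called in both comparisons with diploids. With a replicate block for library sets, the counts were 0 in both comparisons that had called a gene. Each set holds 1 library per ploidy, so the block cannot move the differences of the members. Their SE with the block was 0.291 for gadd45bb (0.551 without), 0.44 for gadd45ba (0.568) and 0.262 for mych (0.317). The labels give no replicate numbers. Over all genes tested, 1 of 9 same-set pairs had a correlation of deviations over 0.1 (-0.11 to 0.23). Pairs from other sets ranged from -0.13 to 0.23. The sets were therefore not treated as pairs. This check over all genes does not settle whether the members vary by set. The cause of these changes in counts was not tested. Promoter and protein comparisons were not run.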
